A study of Mus musculus with 5 samples.

Results

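Among the 54699 features of the deposited expression table is a set of loci that carry a number in place of a gene identifier and come in addition to the gene annotation. They were taken by that identifier, without use of their values, and each is called here by its own number in the table. The deposited description of a locus names the protein its transcript resembles, where there is one, and by that text all of them fall into 3 classes: 47 loci matched a protein of a retrovirus or another retroelement, 12 matched another protein and 108 had no match. The retroelement matches were the envelope protein of the intracisternal A-particle (IAP, 14 loci), IAP gag, pol or the IAP-related IgE-binding protein (12 loci), a leukemia virus (7 loci), another retrovirus (12 loci) and the second open reading frame of LINE-1 (2 loci). The match names a related protein. It does not say that the named virus is present, and matches to gibbon, koala, monkey or feline viruses in a mouse genome name only the closest entry of a protein database.

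RNA was sequenced from B16F10, a pigmented mouse melanoma cell line, in 5 lentivirus-infected cultures, each giving 1 library. Cells with forced expression of Myod1, a transcription factor of skeletal muscle, cells with forced expression of Pparg, a nuclear receptor of fat cells, and cells with the empty expression vector were collected on day 8. Cells with a short hairpin RNA against Setdb1 and cells with the empty knockdown vector, were collected on day 7. The genotype of both controls is labelled wild type. All 5 groups received a lentiviral vector, and the Myod1 and Pparg groups share 1 control library, so there is no replicate check of any difference below and no p-value between conditions can be given.

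Endogenous retroviruses are the inherited remains of past retroviral infections, and with LINE-1 elements they fill a large share of the mouse genome in many similar copies. IAP elements and leukemia virus-like elements are the families best known to be transcribed in mouse tumour lines, B16 melanoma among them. Setdb1 is a histone methyltransferase that is brought to such copies by KRAB zinc finger proteins and Trim28, trimethylates lysine 9 of histone H3 there and keeps them silent in embryonic cells.

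The libraries held between 16214802 and 18300670 reads assigned to features. The values are FPKM (fragments per kilobase of feature length per unit of sequencing depth, scaled between libraries by the authors). Ratios are log2((FPKM + 1) / (FPKM + 1)) of a library against its control, which understates the difference of low loci, and a locus is called higher or lower where this ratio reaches 1 or -1, a 2-fold difference. The targeted genes followed the labels: Myod1 was at an FPKM of 260 with its own expression and at 0 reads in the other 4 libraries, Pparg was at 44.4 against 0 reads elsewhere, and Setdb1 was at 0.867 in the knockdown library against 9.82 with the empty knockdown vector. Of 9 melanocyte markers, all were read in every library, and their summed FPKM was 3375 to 4031 with Pparg and Myod1 expression against 10078 to 10528 in the other 3 libraries. Single markers differed from the sum with Setdb1 knockdown, where Mitf was at 13.7 against 41.6 and Slc45a2 at 113 against 321. There 3 of the 9 were above the control and the rest below it. The 3 are Pmel (4347 against 2993), Sox10 (298 against 244) and Dct (906 against 835). The summed FPKM of the fibroblast markers was at most 2.52 in any library, that of the endothelial markers at most 0.596 and that of the leukocyte markers at most 0.465, with Cd3e, Kdr and Dcn at 0 reads throughout. Their part in the results below was not tested.

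Of all these loci, 27 begin within 500 bases of the start of a RefSeq gene on the same strand, at a median distance of 30.0 bases. The promoter windows of 5 of these (RefSeq, assembly GRCm38.p6, 250 bases before to 50 after the RefSeq start) are printed because the loci carry the differences described below: 1 that was read with Myod1 expression alone, 1 that was higher with Pparg expression, 1 higher with Setdb1 knockdown, the retroelement locus that was lowest with Setdb1 knockdown, and the LINE-1 locus that was higher with Myod1 expression. They were chosen after the values were seen. Capitals mark CAGCTG, an E-box of the kind that Myod1 binds, and AGGTCA on either strand, the half-site of Pparg and other nuclear receptors.
Gm35227, chr9:62166253-62166552, plus strand, start 22 bases before that of locus 155: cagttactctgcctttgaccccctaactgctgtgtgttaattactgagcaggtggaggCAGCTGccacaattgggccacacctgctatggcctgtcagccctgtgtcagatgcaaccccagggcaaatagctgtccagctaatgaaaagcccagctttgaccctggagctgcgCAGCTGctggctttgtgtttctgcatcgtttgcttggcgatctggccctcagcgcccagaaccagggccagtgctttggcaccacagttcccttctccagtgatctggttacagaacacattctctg
4931408D14Rik, chr19:37264046-37264345, minus strand, start 161 bases after that of locus 92: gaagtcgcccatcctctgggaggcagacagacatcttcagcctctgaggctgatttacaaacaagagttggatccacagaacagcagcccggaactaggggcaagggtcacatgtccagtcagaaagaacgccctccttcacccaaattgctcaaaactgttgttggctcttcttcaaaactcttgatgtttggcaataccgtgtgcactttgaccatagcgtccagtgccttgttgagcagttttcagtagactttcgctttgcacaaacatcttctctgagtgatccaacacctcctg
Gm32026, chr19:16063863-16064162, plus strand, start 35 bases before that of locus 88: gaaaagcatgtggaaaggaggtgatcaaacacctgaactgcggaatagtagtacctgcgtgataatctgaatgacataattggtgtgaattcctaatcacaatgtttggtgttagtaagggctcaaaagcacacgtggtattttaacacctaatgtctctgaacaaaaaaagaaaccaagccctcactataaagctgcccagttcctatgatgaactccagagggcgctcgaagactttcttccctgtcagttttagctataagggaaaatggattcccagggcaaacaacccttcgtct
D17H6S56E-5, chr17:35000697-35000996, minus strand, start 10 bases before that of locus 73: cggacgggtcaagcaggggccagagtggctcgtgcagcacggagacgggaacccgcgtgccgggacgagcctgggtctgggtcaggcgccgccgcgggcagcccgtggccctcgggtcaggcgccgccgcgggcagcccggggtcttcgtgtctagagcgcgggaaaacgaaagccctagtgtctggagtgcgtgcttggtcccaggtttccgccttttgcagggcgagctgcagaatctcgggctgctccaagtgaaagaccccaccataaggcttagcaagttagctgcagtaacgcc
Gm33302, chr9:97275489-97275788, plus strand, start 23 bases after that of locus 157: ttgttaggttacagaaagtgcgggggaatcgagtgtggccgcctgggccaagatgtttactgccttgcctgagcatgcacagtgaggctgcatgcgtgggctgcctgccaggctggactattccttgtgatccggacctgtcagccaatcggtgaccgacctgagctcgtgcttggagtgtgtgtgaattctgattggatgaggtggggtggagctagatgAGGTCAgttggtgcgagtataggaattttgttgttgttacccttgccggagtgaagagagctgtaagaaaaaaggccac

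The window of Gm35227 held CAGCTG 2 times, a motif found in 16.3% of the 32851 RefSeq promoter windows of this length, and the window of Gm33302 held AGGTCA 1 time, a motif found in 16.3% of them. The other 3 windows held neither. A match is a description of the letters and no evidence of binding.

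Reads in the loci made up 0.239% of the reads with Myod1 expression, 0.207% with Pparg expression, 0.231% with the empty expression vector, 0.153% with Setdb1 knockdown and 0.194% with the empty knockdown vector (95% Wilson intervals of 0.151% to 0.155% and 0.192% to 0.196% for the last 2, counting error only). Most of them fell in the retroelement class, whose share was 0.200%, 0.185%, 0.214%, 0.125% and 0.178% in the same order. The class was lowest with Setdb1 knockdown. In a culture's pooled RNA, fewer cells that transcribe a locus and less RNA per cell cannot be told apart.

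A few loci held most of the class (12, 40 and 65). Locus 12 alone took 59.4% of the class's reads with Myod1 expression, 49.3% with Pparg expression, 55.4% and 51.6% in the controls and 23.9% with Setdb1 knockdown. The summed FPKM of the class with Setdb1 knockdown was 0.603 times that of its control, or -0.73 on the log2 scale. Without locus 12 it was 0.06 on the same scale, and without loci 12, 65 and 40 it was 0.71, so the direction of the sum turned with 1 locus.

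**Figure D1:**
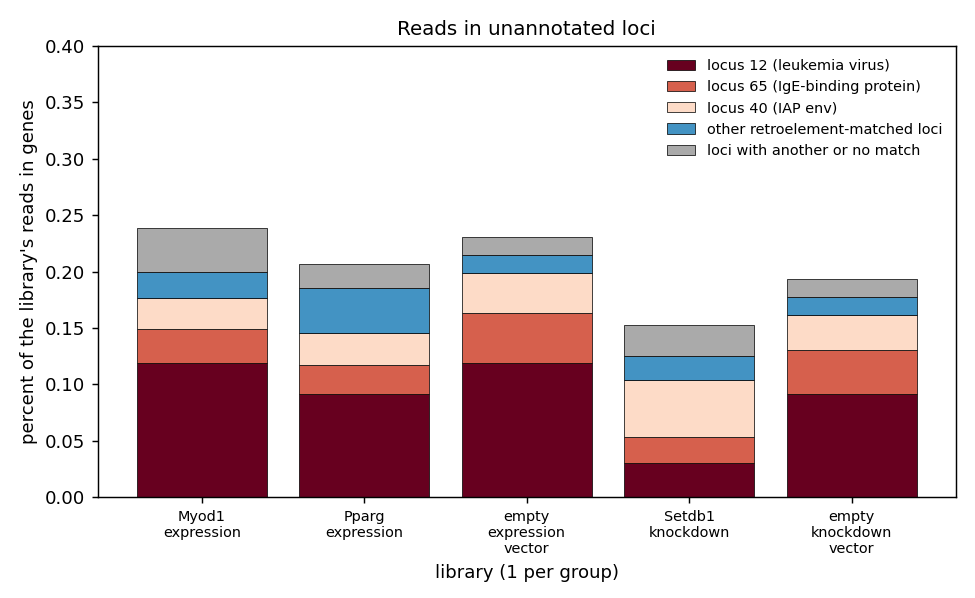
Percent of each library's reads (vertical axis, from 0) in the unannotated loci, 1 bar per library, divided into the 3 retroelement-matched loci with the most reads, the remaining retroelement-matched loci and the loci with another or no match. Locus 12 is the thickest band except with Setdb1 knockdown, where it falls to 0.0299% and locus 40 is thickest at 0.0507%, and the band of loci with another or no match is thickest with Myod1 expression.

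An FPKM of 1 in any library was required for a comparison, and 154 loci met this, 38 of them of the retroelement class. The highest FPKM of any library was 1.05 for the lowest locus that passed and 0.896 for the highest that did not. Of the 13 that did not pass, 9 were of the retroelement class and 3 had 0 reads in every library. A total of 102 loci passed only through a treated library, both controls being under 1, so counts of higher loci follow in part from this filter and from the choice of loci, which the sources used here do not describe. These loci cannot be called between the controls or lower than a control, since the ratio with 1 added stays within 2-fold there. Copies of a retroelement family are close to identical, and how reads that match several copies were assigned is not given either, so the level of a single copy is uncertain.

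In the retroelement class 11 of 38 loci were higher and 2 lower with Setdb1 knockdown, against 9.34% higher and 10.3% lower (19.7% in either direction) of all 12842 features compared. With Pparg expression 9 were higher and 0 lower, against 4.22% and 2.30% (together 6.52%) of all features. With Myod1 expression 8 were higher and 0 lower, against 14.0% and 7.55% (together 21.6%). Between the 2 controls 0 of 38 differed at least 2-fold, against 2.67% of all features (1.23% higher and 1.44% lower). Loci under an FPKM of 1 in both controls could not be called there, nor lower in a treated library. The 0 of 38 is therefore no measure of how alike the controls were. The median log2 ratio of the 38 was 0.60 with Setdb1 knockdown, 0.33 with Pparg expression and 0.09 with Myod1 expression, beside medians of 0.00, -0.02 and 0.02 over all features, and the Myod1 value became -0.05 when libraries were divided by the sum of their FPKM, which moved the median of all features to -0.26.

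**Figure D2:**
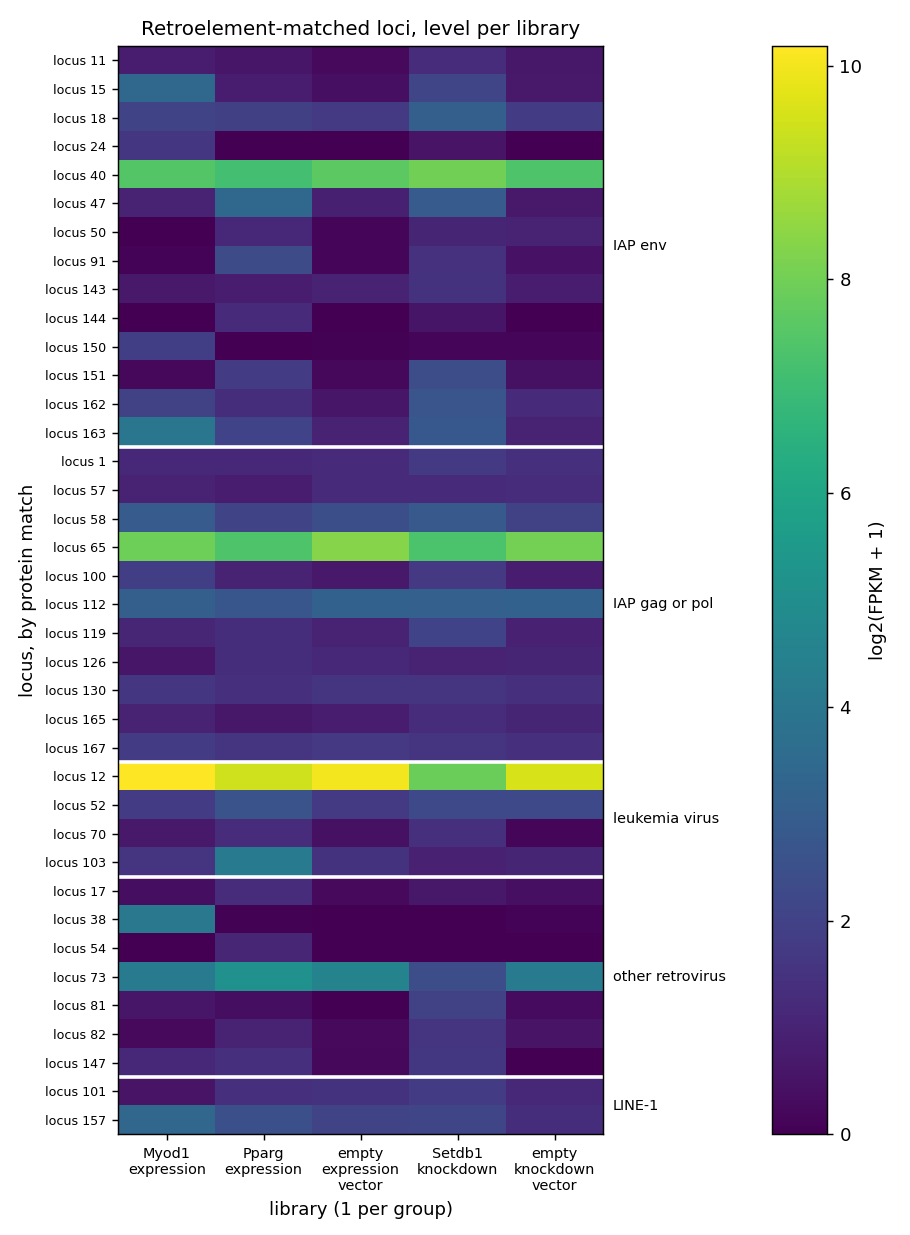
Level of the 38 retroelement-matched loci that reached an FPKM of 1 (rows, by protein match) in the 5 libraries (columns), coloured by log2(FPKM + 1). Loci 12, 40 and 65 stand out in every library, and other loci are high in single libraries, such as locus 38 with Myod1 expression and locus 103 with Pparg expression.

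Among the leukemia virus matches, locus 12 had the most reads of all loci in 4 libraries. It covers 1188 bases of chromosome 1 (170944971 to 170946158, minus strand, GRCm38), resembles the gag-pol polyprotein of murine leukemia virus and overlaps the RefSeq gene Gm39701. Its FPKM was 1162 with Myod1 expression, 701 with Pparg expression, 1024 with the empty expression vector, 237 (95% interval 230 to 243) with Setdb1 knockdown and 748 (736 to 760) with the empty knockdown vector. The knockdown library was the lowest of the 5, at 0.317 times its control (counting interval 0.307 to 0.327), a log2 ratio of -1.65. The empty knockdown vector library stood at -0.45 against the empty expression vector library, and the Pparg library at -0.55 against the latter.

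Locus 103 (chromosome 2, 75638111 to 75642875), which resembles the gag-pol polyprotein of gibbon ape leukemia virus, was high with Pparg expression alone. It held 140 reads with Myod1 expression, 1527 with Pparg expression, 130 with the empty expression vector, 76 with Setdb1 knockdown and 78 with the empty knockdown vector. In FPKM the Pparg library was 10.0 times its control (8.36 to 12.1), and the other 4 libraries lay between 0.926 and 2.01. Locus 70 of the same match was higher with Setdb1 knockdown, at an FPKM of 1.62 against 0.146 (11.1 times, 6.15 to 21.9), and stood at 1.46 with Pparg expression, 0.623 with Myod1 expression and 0.362 with the empty expression vector. Its knockdown ratio of 1.19 on the log2 scale was 0.94 against the other control, under the limit. Locus 52, a single block of 9022 bases and the longest of all loci, had an FPKM of 2.36 to 5.01 and was not called in any comparison. The other 3 gibbon virus matches (loci 45, 62 and 137) stayed under an FPKM of 1, and loci 45 and 52 overlap on opposite strands.

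Of 11 compared loci matched to IAP gag or pol, 1 was higher with Setdb1 knockdown (locus 119, FPKM 3.11 against 0.923), 1 was higher with Myod1 expression (locus 100, 2.73 against 0.640, and at 0.93 on the log2 scale after division by the column sum) and 0 were called with Pparg expression, beside 9.34%, 14.0% and 4.22% higher of all features. The summed FPKM of this group was 0.651, 0.791 and 0.539 times its control in the same order. Without locus 65 it was 1.36, 1.13 and 0.830 times, so the direction turned with 1 locus for the first and the second. Locus 65, matched to the IgE-binding protein, held most of the reads of this group (chromosome 15, 73081412 to 73087952, 2440 bases from Chrac1). Its FPKM was 245 with Myod1 expression, 165 with Pparg expression, 320 with the empty expression vector, 155 with Setdb1 knockdown and 262 with the empty knockdown vector. The other 8 of this group, loci 1, 57, 58, 112, 126, 130 and 165 and an IgE-binding protein locus on chromosome Y, had an FPKM of 0.535 to 8.05 and log2 ratios between -0.56 and 0.83, and 0 were called. Locus 65 was lower in all 3 treated libraries than in their controls, by less than 2-fold on the log2 scale with pseudocount (-0.38, -0.95 and -0.75).

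The IAP envelope matches held the largest number of called retroelement loci. All 14 were compared, and 6 were higher with Setdb1 knockdown, 5 with Pparg expression and 5 with Myod1 expression, with 0 lower in any of the 3 and 0 called between the controls. The shares of all features that were higher were 9.34%, 4.22% and 14.0%. Envelope loci under an FPKM of 1 in both controls could not give a lower call or a call between the controls. Above 0 on the log2 scale were 13 of 14 with Setdb1 knockdown, 10 with Pparg expression and 10 with Myod1 expression, the last becoming 8 after division by the column sum, and 8 between the controls. Locus 40 (chromosome 12, 108079024 to 108084418) dominated the group. Its FPKM was 174 with Myod1 expression, 139 with Pparg expression, 196 with the empty expression vector, 256 with Setdb1 knockdown and 165 with the empty knockdown vector. The knockdown library was the highest, at 1.55 times its control (1.498 to 1.605), under the 2-fold limit.

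The IAP envelope loci are described by the length they span, a grouping made after the values were seen. Of the 6 called with Setdb1 knockdown, 3 span 3298 to 4009 bases, 2 span 7998 to 9247 and locus 18 spans 28506. Locus 47 (chromosome 13, 119661607 to 119669875) spans 8269 bases and lies 7248 bases from Ccl28, a chemokine gene. Its FPKM was 0.987 with Myod1 expression, 9.61 with Pparg expression, 0.867 with the empty expression vector, 6.52 with Setdb1 knockdown and 0.605 with the empty knockdown vector. The Pparg and Setdb1 knockdown libraries were high, at 11.1 times (8.09 to 15.5) and 10.8 times (7.42 to 16.2) their controls, and the other 3 lay between 0.605 and 0.987.

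Locus 151 (chromosome 8, 72024834 to 72033079) showed the same pair of high libraries. It held 8 reads with Myod1 expression, 139 with Pparg expression, 8 with the empty expression vector, 236 with Setdb1 knockdown and 19 with the empty knockdown vector. The FPKM ratio was 14.8 (7.31 to 35.0) with Pparg expression and 11.2 (7.03 to 19.0) with Setdb1 knockdown. Locus 91 (chromosome 19, 9828899 to 9837163) held 3, 228, 6, 95 and 20 reads in the same order of libraries, and locus 144 (chromosome 7, 48124185 to 48132182) held 1, 68, 0, 25 and 0. Both were called with Pparg expression, at 32.4 times (14.7 to 89.2) for locus 91 and at least 19.3-fold (against a floor of 3 reads) for locus 144, while with Setdb1 knockdown their log2 ratios of 0.96 and 0.59 stayed under the limit. Of the 5 envelope loci that span 7998 to 9247 bases, 4 were higher with Pparg expression, 2 with Setdb1 knockdown and 0 with Myod1 expression. Beside them stand 4.22%, 9.34% and 14.0% of all features, for a span group formed after the values were seen.

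The 5 envelope loci that span 3298 to 4009 bases were all higher with Myod1 expression, and 3 of them were higher with Setdb1 knockdown and 1 with Pparg expression. Over all features 14.0%, 9.34% and 4.22% were higher in these comparisons, and this span group too was formed after the values were seen. Locus 163 (chromosome X, 9328975 to 9332636, 15725 bases from Xk) had an FPKM of 14.8 with Myod1 expression, 3.11 with Pparg expression, 0.967 with the empty expression vector, 6.03 with Setdb1 knockdown and 0.945 with the empty knockdown vector. All 3 treated libraries were above both controls, by 15.3 times (9.49 to 26.2) with Myod1 expression, 3.22 times (1.89 to 5.75) with Pparg expression and 6.38 times (3.88 to 11.1) with Setdb1 knockdown.

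Locus 15 (chromosome 10, 38059352 to 38063360), which overlaps the RefSeq gene Gm46220, held 316 reads with Myod1 expression, 29 with Pparg expression, 11 with the empty expression vector, 126 with Setdb1 knockdown and 22 with the empty knockdown vector. The Myod1 library was 29.8 times its control (16.5 to 60.4) and the knockdown library 5.17 times its own (3.27 to 8.55). Locus 150 (chromosome 8, 52138383 to 52142172) held 81, 1, 1, 3 and 4 reads in that order, and locus 24 (chromosome 11, 31545959 to 31549650) held 55, 0, 0, 14 and 0. Locus 150 was high with Myod1 expression alone, and locus 24 was highest there with Setdb1 knockdown next. With Myod1 expression locus 150 was 84.2 times its control (14.7 to 3364) and locus 24 at least 19.0-fold above the floor. With Setdb1 knockdown locus 24 was at least 4.22-fold above it. Locus 162 on chromosome X was higher with Myod1 expression (FPKM 3.05 against 0.541) and with Setdb1 knockdown (5.46 against 1.36), and against the other control its Myod1 ratio dropped to 0.78 on the log2 scale. Locus 18 was called with Setdb1 knockdown alone, at 7.46 against 2.54, the other 3 libraries lying at 2.32 to 3.28. The remaining loci 11, 50 and 143 were not called in any comparison, although locus 50 came just under the limit with Pparg expression (0.996 on the log2 scale). It held 28 reads there, 2 with the empty expression vector and 21 with the empty knockdown vector, and the controls differed by 0.88.

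**Figure D3:**
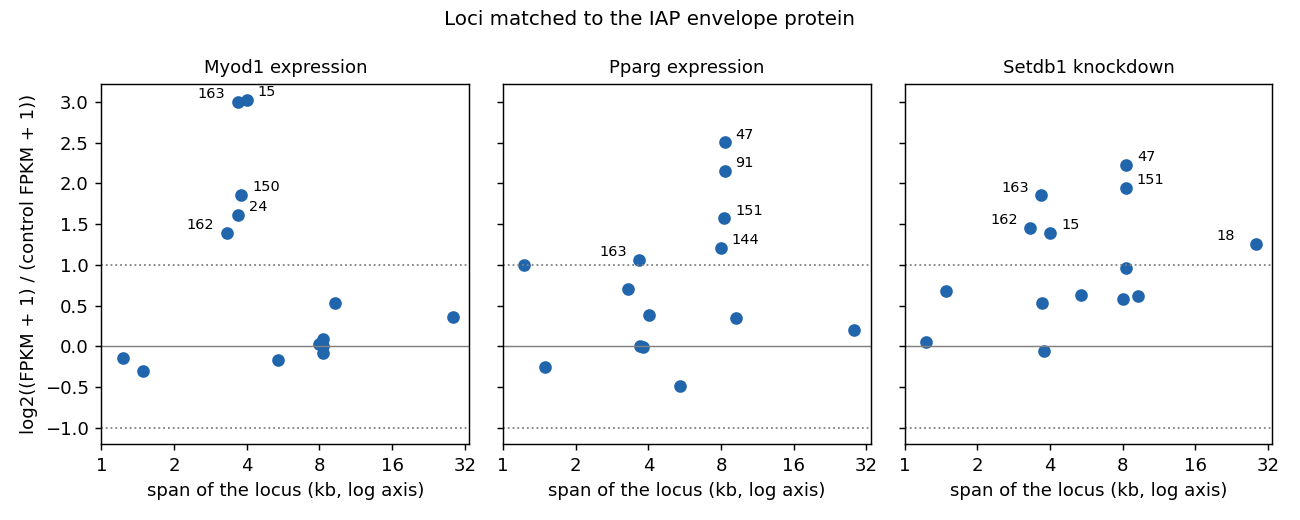
Log2 ratio of the 14 loci matched to the IAP envelope protein (vertical axis) against the span of the locus in kilobases (horizontal log axis) in the 3 treated comparisons, with dotted lines at 2-fold and the numbers of called loci. The 5 loci of 3298 to 4009 bases are the called ones with Myod1 expression, 4 of the 5 called with Pparg expression span 7998 to 9247 bases, and both groups are present among those called with Setdb1 knockdown.

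In the whole retroelement class 4 loci (47, 147, 151 and 163) were higher both with Pparg expression and with Setdb1 knockdown, which is 44.4% of the 9 and 36.4% of the 11, and these comparisons share no library. Over all features 130 were higher in both, 24.0% of 542 and 10.8% of 1200. A set of 3 loci (15, 162 and 163) was higher both with Myod1 expression and with Setdb1 knockdown, 37.5% of the 8 and 27.3% of the 11, beside 15.7% of 1798 and 23.6% of 1200 over all features. The base rates differ. Of the 38 loci compared, 28.9% were higher with Setdb1 knockdown, 23.7% with Pparg expression and 21.1% with Myod1 expression. Over all features these shares were 9.34%, 4.22% and 14.0%. Against both control libraries 10 of the 11, 8 of the 9 and 7 of the 8 were higher with Setdb1 knockdown, Pparg expression and Myod1 expression. Loci that passed the filter only through a treated library are low in both controls, so these counts follow in part from the filter.

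Among the other retrovirus matches, locus 38 (chromosome 12, 92882654 to 92892439, in the RefSeq gene Gm40892) resembles the envelope protein of mouse mammary tumor virus and was read with Myod1 expression almost alone. It held 1069 reads there, 3 with Pparg expression, 0 with the empty expression vector, 1 with Setdb1 knockdown and 5 with the empty knockdown vector. Its FPKM of 15.96 was at least 370-fold above the 3-read floor of the control. The nearest protein-coding gene, Sel1l, is 1033497 bases away.

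Locus 73 (chromosome 17, 34996725 to 35000736, minus strand) matches the envelope of feline sarcoma virus, overlaps the RefSeq gene D17H6S56E-5 on the same strand and starts 251 bases from the start of Vars, the valyl-tRNA synthetase, on the opposite strand. Its FPKM was 17.7 with Myod1 expression, 34.2 with Pparg expression, 22.7 with the empty expression vector, 4.29 with Setdb1 knockdown and 17.8 with the empty knockdown vector. The knockdown library was the lowest, at 0.241 times its control (0.210 to 0.277), and the Pparg library the highest. Loci 12 and 73 were the only ones among all 154 compared that were lower with Setdb1 knockdown, and both were lower against either control. Loci under an FPKM of 1 in the control could not be called lower. After division by the column sum 3 loci were lower. Vars itself differed by -0.67 on the log2 scale with Setdb1 knockdown.

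The remaining matches had few reads. Loci 81 and 82, neighbours near Rprd1a that match the envelope of koala retrovirus, were higher with Setdb1 knockdown, at an FPKM of 2.88 against 0.245 and 1.95 against 0.456. Locus 147 (woolly monkey sarcoma virus gag) held 14 reads with Myod1 expression, 23 with Pparg expression, 2 with the empty expression vector, 28 with Setdb1 knockdown and 0 with the empty knockdown vector, so that all 3 treated libraries were above both controls. Locus 17 (koala retrovirus envelope, 5704 bases from Hsp90b1) was called with Pparg expression, at an FPKM of 1.44 against 0.209 (6.90 times, 3.57 to 14.9), and its log2 ratio of 1.01 was 0.86 against the other control, under the limit. Locus 54 was read with Pparg expression alone, with 15 reads there and 0 in each of the other 4 libraries. The 4 loci matched to woolly monkey sarcoma virus pol or the XMRV6 virus (28, 33, 113 and 116) held between 0 and 1 read in any library and overlap each other in pairs on opposite strands.

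The LINE-1 matches went in different directions with Myod1 expression. LINE-1 elements copy themselves through an RNA and carry their own reverse transcriptase in the matched reading frame. Locus 157 (chromosome 9, 97275716 to 97281894) had an FPKM of 9.40 with Myod1 expression, 4.64 with Pparg expression, 3.21 with the empty expression vector, 3.35 with Setdb1 knockdown and 1.52 with the empty knockdown vector, and the Myod1 library was the highest at 2.93 times its control (1.95 to 4.50). Locus 101 (chromosome 2, 144337459 to 144345698) stood at 0.457, 1.63, 1.82, 2.52 and 1.17 in that order, lowest with Myod1 expression at 0.251 times its control (0.129 to 0.455), which is -0.95 on the scale with pseudocount. With Setdb1 knockdown both were above their control by 0.79 and 0.70 and neither was called. After division by the column sum the Myod1 ratio of locus 157 was 0.96 and 1 LINE-1 locus was lower.

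**Figure D4:**
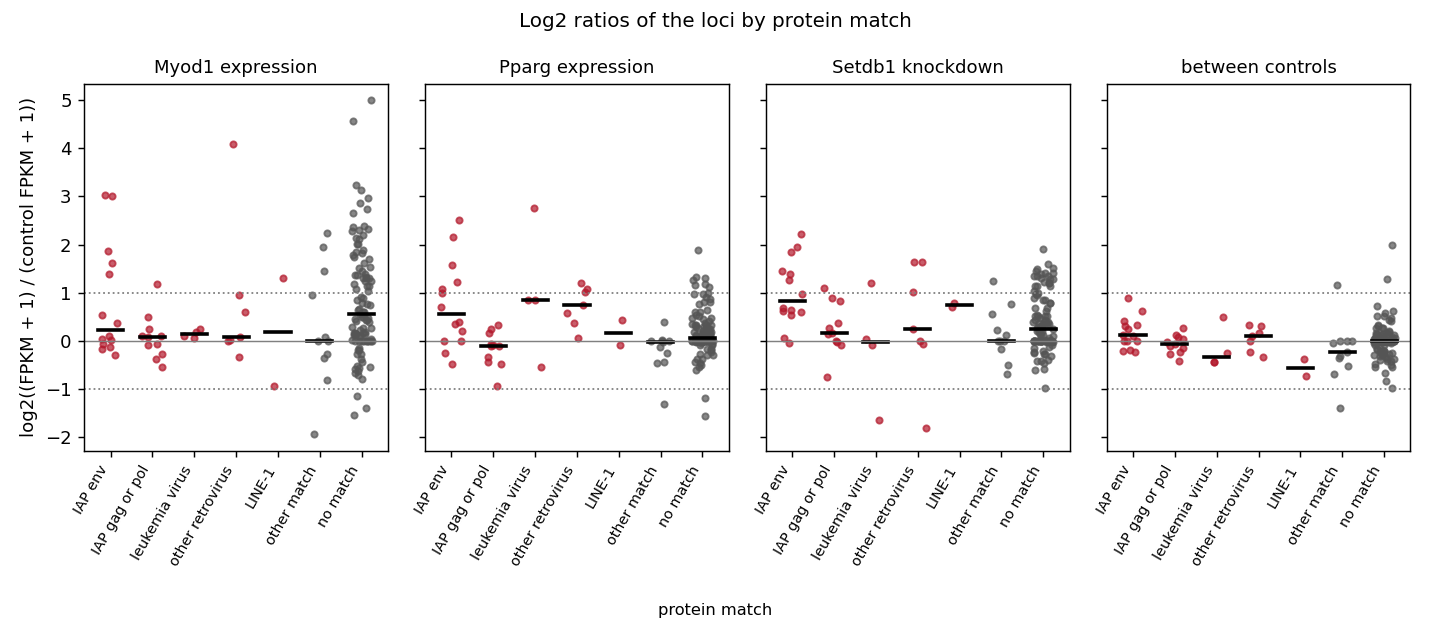
Log2 ratio of the 154 loci compared (points, vertical axis) by protein match (horizontal axis) in the 3 treated comparisons and between the controls, with the median of each class as a bar and dotted lines at 2-fold. Values between the controls stay mostly within 2-fold, which loci under an FPKM of 1 in both controls cannot pass. The unmatched loci reach up to 5.00 with Myod1 expression, and the 2 retroelement points under -1 with Setdb1 knockdown are loci 12 and 73.

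The loci without a retroelement match were described next. Of 116 compared, Myod1 expression had 45 higher and 4 lower, beside 14.0% and 7.55% of all features. Setdb1 knockdown had 22 higher and 0 lower, beside 9.34% and 10.3%. A locus under an FPKM of 1 in its control could not be called lower in any comparison. Pparg expression had 7 higher (6.03%) and 3 lower, beside 4.22% and 2.30% of all features. Against both control libraries 41 of the 45, 18 of the 22 and 4 of the 7 were higher, and with Myod1 and Pparg expression 1 of the 4 and 1 of the 3 were lower. The higher counts follow in part from the filter, as above. The controls differed from each other in 3 higher and 1 lower locus, beside 1.23% and 1.44% of all features. The summed FPKM of these loci was 384 with Myod1 expression, 164 with Pparg expression, 167.5 with the empty expression vector, 249 with Setdb1 knockdown and 167.1 with the empty knockdown vector. The controls were alike, the Myod1 library was 2.29 times and the knockdown library 1.49 times its control, and the Pparg library 0.978 times. The direction of the Pparg value turned without locus 26 (0.064 on the log2 scale), without the locus that overlaps an annotated gene (0.056), after division by the column sum (0.074) and from recovered reads (0.41).

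With Myod1 expression 31 loci held at least 10 reads in that library and at most 3 in each of the other 4, and 21 of them had 0 reads in all 4. These are 27.4% of the 113 loci with at least 10 reads there, beside 3.33% of the 13494 annotated features with as many. The same rule found 2 loci with Pparg expression, 5 with Setdb1 knockdown and 0 in either control. These are 2.20% and 4.76% of the loci with at least 10 reads in those libraries, beside 0.755% and 0.643% of the annotated features. The loci were added to the annotation by a choice that is not described. Their shares are thus not on a like basis with those of the annotated features. Of the 31, 0 were retroelement matches. Their FPKM ranged from 1.48 to 31.0 with a median of 3.02.

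Among the loci without a retroelement match, those with the highest ratios with Myod1 expression had no protein match. Locus 158 (chromosome 9, 62660874 to 62666048, 11778 bases from Itga11) held 201 reads with Myod1 expression and 0 in each of the other 4 libraries, an FPKM of 31.0 and at least 69.6-fold above the floor. Locus 106 (chromosome 3, 38531243 to 38545621) held 406 reads there against 1, 0, 0 and 2 in the Pparg, empty expression vector, Setdb1 knockdown and empty knockdown vector libraries, at least 141-fold. Locus 155 (chromosome 9, 62166525 to 62188213), whose RefSeq promoter window with 2 CAGCTG motifs is printed above, held 314 reads and 0 in each of the others, at least 109-fold.

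Locus 3 (chromosome 1, 72936486 to 72952744, 61602 bases from Igfbp5) held 479 reads with Myod1 expression and at most 3 elsewhere, and locus 39 (chromosome 12, 100528639 to 100536281) held 270 and 0 in each of the others. The 5 loci thus had the Myod1 library high and all others at or near 0. Of the loci with another protein match, locus 161 (transmembrane protein 182), locus 68 (an F-box/WD repeat protein) and locus 4 (exportin-5) were higher, all 3 with 0 reads in the other libraries. Transmembrane protein 182 is known as a protein of skeletal muscle and fat tissue.

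Lower with Myod1 expression were loci 8, 5, 63 (FPKM 0.533 against 3.08) and 51 (1 read against 10). Locus 5 (chromosome 1, 133880919 to 133891263, 5936 bases from Optc) had an FPKM of 1.60 with Myod1 expression, 1.59 with Pparg expression, 6.67 with the empty expression vector, 3.44 with Setdb1 knockdown and 4.21 with the empty knockdown vector. It was lowest in the libraries of both expressed factors, which share a control, at 0.241 times (0.138 to 0.400) and 0.239 times (0.144 to 0.383). Against the other control locus 51 was at -0.61 with Myod1 expression and -0.65 with Pparg expression, and locus 5 with Myod1 expression came just under the limit, so that locus 63 alone was lower than both controls there. Locus 8, the only locus that overlaps an annotated gene (Mia3), stood at 3.19, 5.44, 15.1, 5.63 and 5.08, so the empty expression vector alone was high. Against the other control its ratios were -0.54 with Myod1 expression and 0.08 with Pparg expression, which ends both calls and turns the second.

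With Pparg expression the highest of these loci was locus 92 (chromosome 19, 37258066 to 37264256, 4487 bases from Ide). It held 10 reads with Myod1 expression, 211 with Pparg expression, 6 with the empty expression vector, 41 with Setdb1 knockdown and 10 with the empty knockdown vector. The Pparg library was 30.0 times its control (13.5 to 82.6), with the knockdown library next. Locus 111 (chromosome 4, 62735779 to 62741501) had an FPKM of 1.94 against 0.195 (9.98 times, 4.63 to 25.6), the other 3 libraries lying under 0.4. Loci 139 and 69 held 39 and 14 reads with Pparg expression against 0 in the control. Locus 49 held 13 there and 0 in the control, with 9 with Myod1 expression, 12 with Setdb1 knockdown and 4 with the empty knockdown vector, and its log2 ratio of 1.32 was 0.71 against the other control. Locus 86 was also counted higher, at 1.15, but at -0.12 against the other control.

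With Setdb1 knockdown locus 89 (chromosome 19, 36235469 to 36256364) held 20 reads with Myod1 expression, 0 with Pparg expression, 3 with the empty expression vector, 62 with Setdb1 knockdown and 5 with the empty knockdown vector. The knockdown library was the highest at 11.2 times its control (4.55 to 35.7), and the Myod1 library was next. Locus 127 (1744 bases from D5Ertd579e) had an FPKM of 2.45 against 0.141 (17.4 times, 6.52 to 65.5). Loci 85, 23 and 88 held 52, 36 and 35 reads with Setdb1 knockdown against 1, 2 and 4 in the control. At 4 reads or fewer the intervals are wide, for locus 85 from 8.07 to 1891 times. Between the controls locus 14 was the most different, with 60 reads with the empty knockdown vector against 2 with the empty expression vector.

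A group of 22 loci, 2 of them retroelement matches, begin within 1000 bases of the start of a protein-coding gene on the opposite strand, at 1 to 601 bases and a median of 105.0. Transcripts that run away from a gene's start in this way are common at mammalian promoters. Of these loci 6 were higher with Setdb1 knockdown, beside 9.34% of all features, and the coding gene was higher as well for 1 of the 6 (locus 66 with Tbc1d22a, 1.35 and 1.14). Against the other control this pair stood at 0.69 and 0.85, which ends both calls, and 4 of the 6 loci were higher than both controls. With Myod1 expression 4 were higher and 0 of their partners (14.0% of all features), and with Pparg expression 1 and 0 (4.22%), the last call ending against the other control and the Myod1 call of locus 117 after division by the column sum. Locus 55, for example, was 1.30 with Myod1 expression while Mycbp2 was -1.01 (-0.61 against the other control, which ends its call), and locus 87 was -0.43 with Setdb1 knockdown while Incenp was -2.26. Across the 22 pairs, which share their libraries, Pearson's r of the log2 ratios was 0.48 with Setdb1 knockdown, -0.26 with Pparg expression and 0.05 with Myod1 expression, beside 0.42 between the controls (Spearman's rho 0.56, -0.20, 0.01 and 0.56).

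**Figure D5:**
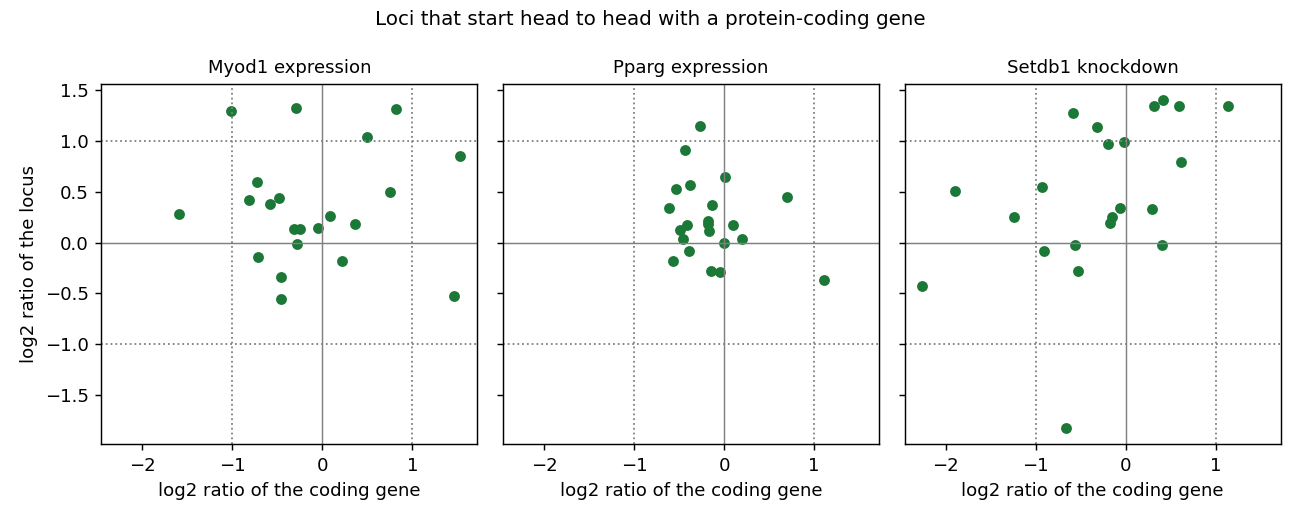
Log2 ratio of the locus (vertical axis) against that of the protein-coding gene on the opposite strand (horizontal axis) for the 22 pairs in the 3 treated comparisons, 1 point per pair, with dotted lines at 2-fold. With Setdb1 knockdown 6 loci lie above the upper line and 1 of their partners beyond the right line, and the point lowest down is locus 73 with Vars.

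The annotated genes around this biology were read from lists. Of 28 retroelement silencing genes compared, 13 were lower and 0 higher with Setdb1 knockdown, beside 10.3% lower of all features, with a median of -0.89. Against both controls 9 of the 13 were lower. Sumo2 turned to 0.71 against the other control, and Cbx5, Suv39h1 and Suv39h2 came to -0.95, -0.90 and -0.62, which ends their calls. Besides Setdb1 the 13 include the DNA methyltransferase Dnmt1 (FPKM 16.8 against 66.0), its partner Uhrf1 (8.79 against 116), the chromatin remodeller Hells (0.367 against 6.15), the heterochromatin proteins Cbx3 and Cbx5 and the histone chaperone subunits Chaf1a and Chaf1b. With Myod1 expression 10 were lower and 0 higher, beside 7.55% of all features (Dnmt1 29.5 against 83.8, Uhrf1 46.1 against 108, Hells 0.892 against 5.77), and 6 of the 10 were lower than both controls. With Pparg expression 0 were lower and 1, Sumo2, was higher, but Sumo2 differed by 2.49 between the controls and was at -0.48 against the other one. Trim28 stood at 120 to 211 in the 5 libraries and was not called.

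Of 21 genes of retroviral restriction and nucleic acid sensing compared, 6 were higher and 0 lower with Pparg expression, beside 4.22% higher of all features, and the median was 0.53. They are the RNA sensor Ddx58 (RIG-I, FPKM 20.6 against 4.85), Dhx58 (3.57 against 0.580), the interferon regulatory factors Irf7 (3.03 against 0.178) and Irf1 (12.7 against 4.77), the RNA helicase Mov10 (30.7 against 12.3) and Oas1a (18.5 against 5.68). Dhx58 also differed between the controls, by 1.03, and its Pparg ratio was 0.50 against the other control, while the other 5 kept their call. With Setdb1 knockdown 1 was higher (Ddx58, 14.4 against 6.56) and 2 were lower (Samhd1 and Mb21d1), beside 9.34% and 10.3% of all features. After division by the column sum 0 were higher, and against the other control 3 were higher and 2 lower. Samhd1 and Mb21d1 stood at -0.92 and -0.66 against the other control, which ends these calls, so the 2 lower there are other genes. With Myod1 expression 0 were higher and 2 lower (Mov10 and Eif2ak2), beside 7.55% lower of all features. After division by the column sum 6 were lower, and against the other control 5, Mov10 at -0.92 no longer among them.

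Of the 4 gammaretrovirus receptors, Slc7a1, the receptor of ecotropic murine leukemia virus, was lower in all 3 comparisons, at an FPKM of 18.6 and 17.9 against 49.4 and of 12.9 against 28.5. Its log2 ratio against the other control was -0.59 with Myod1 expression and -0.64 with Pparg expression, which ends those calls, and it stayed lower with Setdb1 knockdown. Xpr1, Slc20a1 and Slc20a2 were not called, although after division by the column sum 2 of the 4 receptors were lower with Myod1 expression. Over all features 7.55%, 2.30% and 10.3% were lower with Myod1 expression, Pparg expression and Setdb1 knockdown. Of 8 annotated genes of retroelement descent compared, 3 were higher with Myod1 expression (Peg10, Rtl1 and Rtl8b), 2 with Pparg expression (Peg10 and Rtl8c) and 0 with Setdb1 knockdown, where Peg10 and Rtl10 were lower. The shares of all features were 14.0%, 4.22% and 9.34% higher and, with Setdb1 knockdown, 10.3% lower. Against the other control Peg10 with Pparg expression was at 0.18 and Rtl10 with Setdb1 knockdown at -0.20, and after division by the column sum Rtl8b with Myod1 expression was at 0.63, so that these 3 calls end. Peg10, an imprinted gene of placenta, had an FPKM of 175 with Myod1 expression, 33.8 with Pparg expression, 14.8 with the empty expression vector, 4.18 with Setdb1 knockdown and 29.6 with the empty knockdown vector. Rtl1, an imprinted gene of placenta and fetal muscle, was at 14.3 with Myod1 expression and at 0.0164 or less elsewhere. Both genes were highest with Myod1 expression.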

How the data were processed

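The 5 libraries were made from total RNA with a NEBNext Ultra kit, per the labels' protocols. CASAVA, HISAT2, featureCounts 1.5.0-p3 and the mouse build GRCm38 are named in the submitters' processing notes. How the unannotated loci were found, and how strand and reads shared by several copies were treated, is not given in the sources used here. The deposited table holds FPKM values for 54699 features, scaled between libraries by the authors.

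Each FPKM times its feature length was a whole multiple of 1 step per library (100% of values within 0.01 read), from which reads were recovered. Loci that reached an FPKM of 1 in any library were compared as log2((FPKM + 1) / (FPKM + 1)), and 2-fold was the limit of a call. Intervals are 95% Wilson intervals for a level or share and exact conditional binomial intervals for a ratio, and cover counting error only. A control at 0 reads was set to a floor of 3 reads in that library, giving "at least". No test between conditions was run, since no group has a replicate. The steps were tested on simulated data.

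Named one by one by rule were the retroelement loci compared and, in each comparison, the 5 highest and 5 lowest of the other called loci. Some loci outside this rule were named as well. They are retroelement loci under an FPKM of 1, loci with another protein match, loci that start opposite a coding gene and the locus of largest sum. The loci were taken by identifier, but the decision to describe this set, and the gene lists and markers, were made with earlier results of these data known. RefSeq tables (GRCm38.p6) gave promoter windows and neighbouring genes. Alternatives were another pseudocount, fold limit, filter, scaling and control library, sums of recovered reads, and sums without single loci. Calculations used pandas 2.3.3, numpy 2.4.6, scipy 1.17.1 and matplotlib 3.10.9.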

Additional observations from a re-analysis of the deposited data

How the results depend on the processing

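No replicate could be left out and no paired analysis was possible because each group has 1 library. The number of loci called was 57, 19, 35 and 4 with Myod1 expression, Pparg expression, Setdb1 knockdown and between the controls, and with a 4-fold limit it was 22, 3, 1 and 0. With a pseudocount of 0.1 it was 52 with Pparg expression, 68 with Setdb1 knockdown and 33 between the controls. The log2 ratio of the summed FPKM of the retroelement class with Myod1 expression was 0.08. It was -0.31 after division by the column sum, 0.46 against the other control, -0.11 without locus 12 and -0.10 from recovered reads, and, in alternatives chosen after seeing the data, 0.18 without the IgE-binding protein loci and 0.88 without loci 12, 40 and 65. With Pparg expression it was -0.51, and -0.40, -0.13, -0.44, -0.21, -0.42 and 0.93 under the same settings in that order. With Setdb1 knockdown it was -0.73, and -0.81 after division by the column sum, -1.11 against the other control, 0.061 without locus 12, -0.50 from reads and 0.71 without the 3 loci. Between the controls it was -0.38, and -0.33 after division by the column sum, -0.25 without locus 12, -0.27 from reads, -0.40 without the IgE-binding protein loci and -0.11 without the 3 loci. The sum of the other loci was 1.19 with Myod1 expression, and 0.80 after division by the column sum, 1.34 without locus 26 and 1.32 without the locus in Mia3. With Pparg expression it was -0.03, and 0.074, 0.064, 0.056 and 0.41 after division by the column sum, without locus 26, without the locus in Mia3 and from reads. With Setdb1 knockdown it was 0.57, and 0.77 from reads. The cause of these shifts was not tested. Of 173 alternative values of 59 called ratios of named loci, 158 stayed past 2-fold, 13 fell under it and 2 had the opposite sign, both with Pparg expression against the other control (locus 8, 0.083, and locus 86, -0.12). The 59 values with a pseudocount of 0.1 are among the 158 and could not fall, since a smaller pseudocount enlarges a ratio. After division by the column sum 56 of 59 stayed past 2-fold, and against the other control 43 of 55. For 64 called ratios of list genes and of pairs of a locus and a coding gene, alternatives chosen after seeing the data gave 61 still past 2-fold after division by the column sum. Against the other control 41 stayed past it, 21 fell under it and 2 had the opposite sign (Sumo2, -0.48 with Pparg expression and 0.71 with Setdb1 knockdown). Loci with 1 to 3 reads in the control have wide ratio intervals, and with 1 library per group only counting error is measured.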
